A study of Mus musculus with 16 samples.

Results

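The 10 genes described here make and read the main signals of blood vessel growth, or mark the cells that line vessels: Vegfa, Vegfb, Kdr, Flt1, Pecam1, Cdh5, Tek, Angpt1, Angpt2 and Hif1a. They were chosen by name for their known roles, with earlier results of these data known, and all 10 were found among the 23179 genes of the table. Their RNA was measured by RNA-Seq in mammary adipose tissue from the side opposite a tumor grown from E0771 cells, a mouse mammary cancer cell line. All mice were wild-type females of the strain C57BL/6NCrl, 8 weeks old on arrival, and there were 4 libraries in each of 4 groups. CON-LFD mice ate a low-fat diet throughout, and DIO-HFD mice were made obese with a 60% high-fat diet and stayed on it. DIO-LFD mice were made obese and then given the low-fat diet, and DIO-VSG mice were made obese and then had vertical sleeve gastrectomy (VSG), removal of most of the stomach, together with the low-fat diet. All mice without VSG had a sham operation, and all received E0771 cells in a mammary fat pad 22 weeks after they were first randomized, so every group carried a tumor. Operation and diet change came together in DIO-VSG, and the control for that operation among formerly obese mice was DIO-LFD.

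New vessels sprout when hypoxia-inducible factors, of which Hif1a encodes a subunit, switch on the secreted growth factor VEGF-A, which binds the receptors VEGFR2 (Kdr) and VEGFR1 (Flt1) on endothelial cells. VEGFR2 carries most of the growth signal, whereas VEGFR1 binds VEGF-A tightly, signals weakly and can act as a decoy. It is also the receptor for VEGF-B, the product of Vegfb. Angiopoietin-1 (Angpt1) keeps vessels quiet through the receptor TIE2 (Tek), and angiopoietin-2 (Angpt2), released by activated endothelium, can oppose it on the same receptor. PECAM-1 (Pecam1) and VE-cadherin (Cdh5) join endothelial cells to each other. Adipose tissue is densely supplied with capillaries, and its adipocytes are a source of VEGF-A.

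In the GENCODE M21 annotation of GRCm38, all 10 are protein-coding genes. Vegfa lies at chr17:46016993-46032369, Vegfb at chr19:6982473-6987651, Kdr at chr5:75932827-75978458 and Flt1 at chr5:147561604-147726011. Tek lies at chr4:94739289-94874976, Angpt1 at chr15:42424723-42676977, Angpt2 at chr8:18690263-18741562, Pecam1 at chr11:106654217-106750628, Cdh5 at chr8:104101625-104144511 and Hif1a at chr12:73901375-73947530. Start-site sequences from RefSeq (GRCm38.p6) were matched for 6 of the 10 members, with 7 start sites. The 250 bases before the start are printed for both VEGF ligands and both VEGF receptors, because these 4 genes are the signal and its readers, and because the core letters bound by hypoxia-inducible factors can be looked for in them. Capitals mark ACGTG or GCGTG on either strand, so that CACGT and CACGC are the same letters read on the opposite strand. The windows are chr17:46032378-46032627, chr19:6987652-6987901, chr5:75978456-75978705 and chr5:147726012-147726261, all of genes on the minus strand, written 5′ to 3′ along the gene.
Vegfa: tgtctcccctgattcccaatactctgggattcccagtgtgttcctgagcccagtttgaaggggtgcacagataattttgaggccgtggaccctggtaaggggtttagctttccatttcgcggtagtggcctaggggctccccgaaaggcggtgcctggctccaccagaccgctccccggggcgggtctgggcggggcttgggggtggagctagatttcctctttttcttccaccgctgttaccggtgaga
Vegfb: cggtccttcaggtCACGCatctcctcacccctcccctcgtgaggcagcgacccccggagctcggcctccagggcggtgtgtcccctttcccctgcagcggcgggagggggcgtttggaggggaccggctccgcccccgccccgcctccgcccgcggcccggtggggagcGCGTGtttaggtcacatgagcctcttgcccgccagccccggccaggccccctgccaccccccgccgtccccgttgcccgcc
Kdr: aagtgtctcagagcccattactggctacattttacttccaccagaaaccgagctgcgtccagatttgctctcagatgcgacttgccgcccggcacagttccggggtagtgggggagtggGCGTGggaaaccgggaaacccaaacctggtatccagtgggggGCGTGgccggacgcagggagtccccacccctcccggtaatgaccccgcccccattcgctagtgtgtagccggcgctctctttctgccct
Flt1: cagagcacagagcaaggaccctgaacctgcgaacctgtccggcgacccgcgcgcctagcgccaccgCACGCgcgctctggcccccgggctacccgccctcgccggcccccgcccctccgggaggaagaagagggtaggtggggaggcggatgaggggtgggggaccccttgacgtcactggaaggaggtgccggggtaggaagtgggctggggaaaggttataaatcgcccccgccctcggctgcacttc

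Counting back from the start site, Kdr held GCGTG at -131 and at -89, Vegfb held CACGC at -237 and GCGTG at -81, and Flt1 held CACGC at -184. The Vegfa window held none of these letters, nor did that of Tek, while the window of Hif1a held CACGT at -135, overlapping ACGTG at -134, and ACGTG at -70. The Hif1a window, chr12:73907617-73907866, lies inside the gene as annotated here, and so does that of a second Vegfa start, which held 2 matches. Of 32851 windows of this length, 16.6% held ACGTG, 28.2% held GCGTG and 38.6% held either, so such a match was common and is given as a description only.

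The libraries held between 46907377 and 57610899 reads, and the reads of a member in a library ran from 360 to 49288. All 10 members passed the filter on low values (10 normalized counts or more in 4 libraries or more). The adipocyte markers (Fabp4 and 9 others) were abundant in every library, with a summed level of 442491 to 1720121 normalized counts. The libraries differed far more in lymphocyte RNA. The summed level of 10 B cell markers ran from 338 to 83726 in CON-LFD and from 1149 to 109696 in DIO-HFD, but only from 19915 to 45369 in DIO-LFD and from 75779 to 87520 in DIO-VSG, with no marker at 0 in any library. The 11 T cell markers showed the same pattern, with ranges of 1461 to 36021, 1682 to 51573, 11275 to 19512 and 30925 to 49298. CON-LFD replicates 2 and 4 and DIO-HFD replicates 2 and 3 were poor in lymphocyte RNA, whereas every DIO-VSG library was rich in it. DIO-LFD replicate 1 stood apart in another way, with the highest level of Vegfa, Kdr, Flt1 and Pecam1. In bulk tissue, fewer cells of a type and less RNA per cell cannot be told apart.

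Obesity was addressed by DIO-HFD against CON-LFD, and the comparisons of DIO-VSG and DIO-LFD with DIO-HFD were about weight loss by surgery and by diet. These 3 comparisons shared the DIO-HFD libraries. By limma, 0 of 10 members passed an adjusted p of 0.05 in any of 6 comparisons, against a background over 21218 genes of 0.0377% in DIO-HFD against CON-LFD, 0.00471% in DIO-LFD against CON-LFD and 0% in the other 4. At an unadjusted p below 0.05 there were 4 members in DIO-HFD against CON-LFD (background 12.9%), 4 in DIO-VSG against DIO-HFD (13.2%) and 1 in DIO-LFD against DIO-HFD (8.53%). There were 3 in DIO-VSG against DIO-LFD (9.71%), 2 in DIO-VSG against CON-LFD (17.8%) and 0 in DIO-LFD against CON-LFD (6.26%). By voom on the recovered reads these counts were 4, 4, 1, 4, 2 and 0, and 0 members passed the adjusted threshold. Without the 4 libraries poor in lymphocyte RNA, left out after the data were seen, 0 passed that threshold in any comparison, against backgrounds of 0.00471%, 0%, 0%, 0.0189%, 0.00471% and 0.0141% in the same order. In that fit 1, 1, 3, 4, 1 and 1 members had an unadjusted p below 0.05, against backgrounds of 7.54%, 6.95%, 23.1%, 21.7%, 5.12% and 8.16%. A test of any difference across the 4 groups called 0 members at the adjusted threshold (background 0%) and 3 at an unadjusted p below 0.05 (background 12.7%): Angpt2, Vegfb and Angpt1. Their limma p adjusted over all genes was 0.332, 0.379 and 0.391. Every difference below is therefore a description of these libraries that did not pass the correction over all genes.

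**Figure D1:**
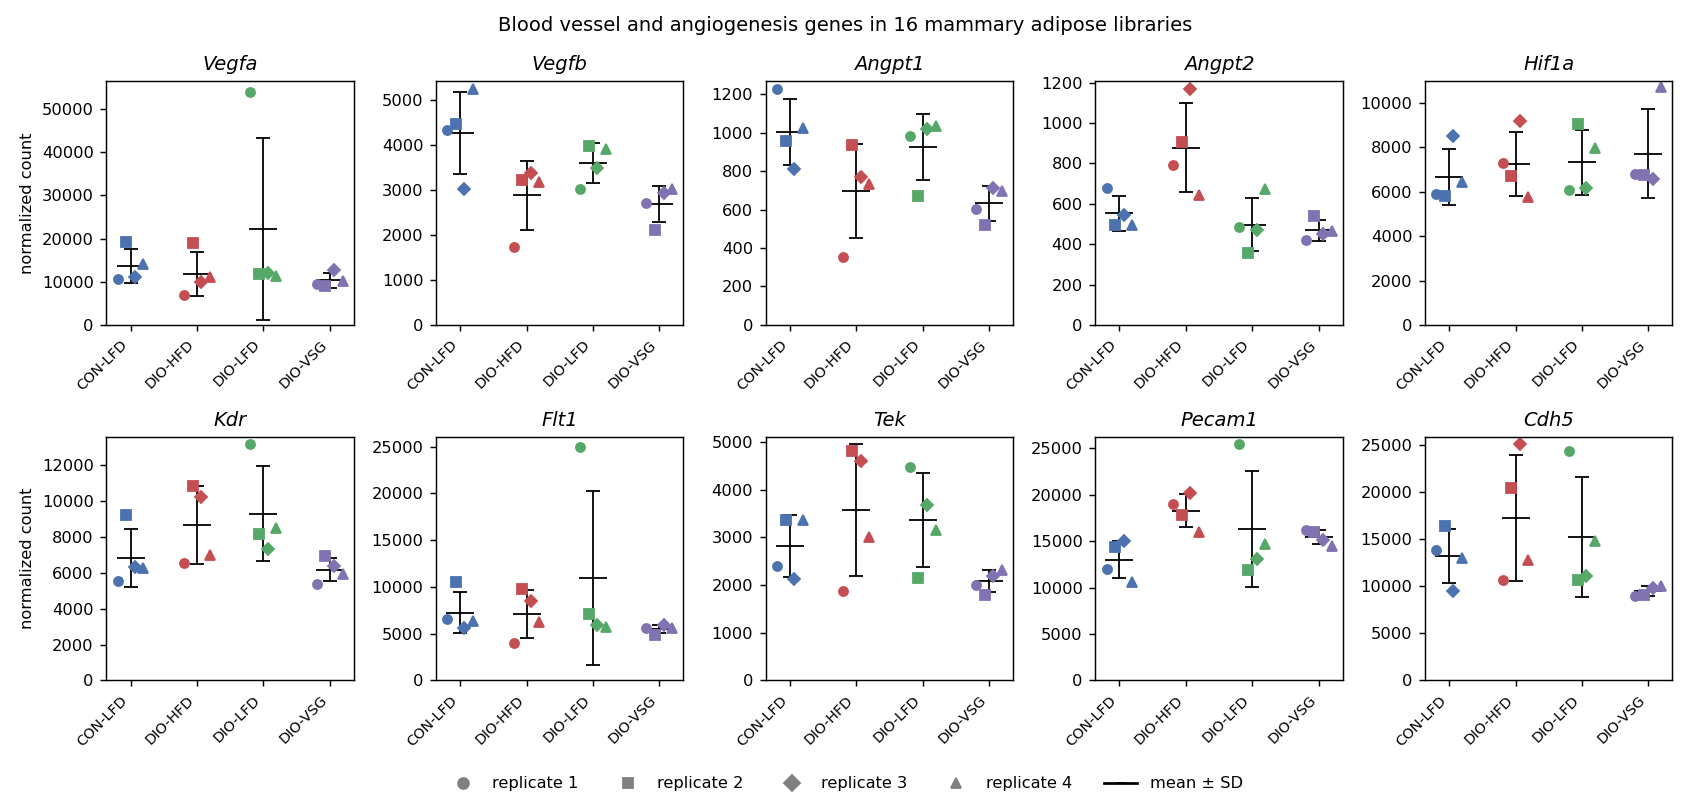
Normalized count (vertical axis, from 0) of each member in the 16 libraries by group (horizontal axis), with symbols for replicates 1 to 4 and bars for the mean ± SD of 4 libraries. Angpt2 stood highest in DIO-HFD, and DIO-LFD replicate 1 stood far above its group for Vegfa (53814) and Flt1 (24896).

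Angpt2 showed the clearest pattern of the 10 members, with the highest group mean in DIO-HFD and lower and similar means in the other 3 groups. Its normalized counts in replicates 1 to 4 were 679.8, 493, 542 and 493 in CON-LFD and 794, 906, 1168 and 645 in DIO-HFD. After weight loss they were 485, 357, 469 and 675 in DIO-LFD and 420.1, 542, 448 and 464 in DIO-VSG. All DIO-HFD libraries lay above all DIO-VSG libraries, whereas 1 CON-LFD and 1 DIO-LFD library lay above the lowest DIO-HFD library. The group means were 552 ± 88.2, 878 ± 221, 496 ± 132 and 469 ± 51.9 (SD, n = 4 each) in the same order of groups. The log2 fold change was 0.65 (SE 0.20, unadjusted p = 0.006, adjusted p = 0.244) in DIO-HFD against CON-LFD. It was -0.88 (SE 0.20, unadjusted p = 0.00062, adjusted p = 0.243) in DIO-VSG against DIO-HFD and -0.83 (SE 0.20, unadjusted p = 0.00103, adjusted p = 0.318) in DIO-LFD against DIO-HFD. DIO-VSG and DIO-LFD differed by -0.05, with a 95% interval of -0.48 to 0.38.

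The level of Angpt2 within DIO-HFD was highest in replicates 2 and 3, which were also the libraries poor in lymphocyte RNA. Without the 4 libraries of low B cell score the log2 fold change was 0.24 against CON-LFD, -0.62 for DIO-VSG and -0.56 for DIO-LFD against DIO-HFD, and with the lymphocyte score as a covariate it was 0.67, -0.81 and -0.79. With an endothelial score as a covariate it was 0.54, -0.69 and -0.77. The part of lymphocyte RNA in the difference of Angpt2 between DIO-HFD and CON-LFD was not tested further.

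Angpt1, the partner ligand that keeps vessels quiet, had a lower mean in DIO-HFD than in CON-LFD, the opposite of Angpt2. Its normalized counts were 1225, 958, 812 and 1026 in CON-LFD, 355, 935, 768 and 733 in DIO-HFD, 985, 672, 1019 and 1033 in DIO-LFD and 605, 518, 711 and 696 in DIO-VSG. The DIO-VSG libraries all lay below the CON-LFD libraries, while DIO-HFD and CON-LFD overlapped. By limma the log2 fold change was -0.60 (SE 0.25, unadjusted p = 0.0328, adjusted p = 0.342) in DIO-HFD against CON-LFD and -0.66 (SE 0.25, unadjusted p = 0.0194, adjusted p = 0.268) in DIO-VSG against CON-LFD. DIO-LFD lay above DIO-HFD by 0.47 (SE 0.25, unadjusted p = 0.0807, adjusted p = 0.666), and DIO-VSG differed from DIO-HFD by -0.07 (SE 0.25, unadjusted p = 0.79, adjusted p = 0.901). DIO-HFD replicate 1, the lowest library, also had the highest B cell score and the lowest adipocyte score (-1.11) of the 16. Without it, DIO-HFD lay 0.30 below CON-LFD and 0.18 below DIO-LFD. Without the 4 libraries of low B cell score these gaps were 0.96 and 0.84, and DIO-VSG lay 0.30 above DIO-HFD. With the adipocyte score as a covariate the difference of DIO-VSG from CON-LFD was -0.34, and with the B and T cell score it was -0.40.

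The log2 ratio of Angpt2 to Angpt1, in which the scaling of a library cancels, was higher in DIO-HFD than in both low-fat groups that had no VSG. In replicates 1 to 4 it was 1.16, -0.05, 0.60 and -0.19 in DIO-HFD, against -0.85, -0.96, -0.58 and -1.05 in CON-LFD and -1.02, -0.91, -1.12 and -0.61 in DIO-LFD. In DIO-VSG it was -0.52, 0.06, -0.66 and -0.58. All 4 DIO-HFD libraries lay above all CON-LFD and all DIO-LFD libraries, but DIO-VSG replicate 2 lay among the DIO-HFD libraries. The mean was 0.38 ± 0.62 in DIO-HFD, -0.86 ± 0.20 in CON-LFD, -0.92 ± 0.22 in DIO-LFD and -0.43 ± 0.33 in DIO-VSG (SD). The difference was 1.24 for DIO-HFD against CON-LFD and -1.30 for DIO-LFD against DIO-HFD, each with an exact two-sided permutation p of 0.0286, the smallest that 4 against 4 libraries allow (2 of 70 arrangements), and 0.0857 after adjustment over 6 comparisons. For DIO-VSG against DIO-HFD the difference was -0.81 (exact permutation p = 0.0857, adjusted p = 0.103). Against DIO-LFD and CON-LFD, DIO-VSG lay higher by 0.49 (exact p = 0.0571, adjusted p = 0.103) and 0.43 (exact p = 0.0857, adjusted p = 0.103), and DIO-LFD differed from CON-LFD by -0.06 (exact p = 0.686, adjusted p = 0.686). Without DIO-VSG replicate 2 its differences from DIO-LFD and CON-LFD were 0.33 and 0.27. No ratio passed the adjusted threshold.

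**Figure D2:**
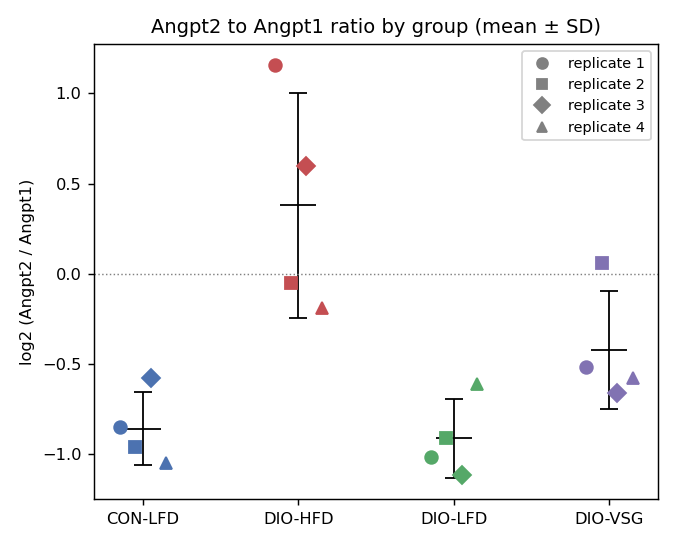
Log2 ratio of Angpt2 to Angpt1 (vertical axis) in each library by group, with symbols for replicates and bars for the mean ± SD of 4 libraries. The DIO-HFD libraries lie between -0.19 and 1.16, above all CON-LFD and DIO-LFD libraries, and the DIO-VSG libraries lie between -0.66 and 0.06.

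Tek, the receptor that both angiopoietins bind, had its lowest mean in DIO-VSG. In normalized counts, the libraries read 1872, 4801, 4589 and 3008 in DIO-HFD, 4481, 2144, 3676 and 3156 in DIO-LFD and 1996, 1798, 2196 and 2318 in DIO-VSG, beside 2400.3, 3354, 2125 and 3369 in CON-LFD. DIO-HFD replicates 2 and 3 were the highest of their group, and replicate 1 lay within the DIO-VSG range. The log2 fold change of DIO-VSG was -0.69 (SE 0.29, unadjusted p = 0.0293, adjusted p = 0.338) against DIO-HFD and -0.65 (SE 0.29, unadjusted p = 0.038, adjusted p = 0.509) against DIO-LFD. Without the 4 libraries of low B cell score the difference between DIO-VSG and DIO-HFD was -0.20. The difference from DIO-LFD was -0.44 with the B and T cell score as a covariate and -0.22 with the adipocyte score.

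Of the VEGF ligands, Vegfb was lower in DIO-HFD and DIO-VSG than in CON-LFD. Replicates 1 to 4 held normalized counts of 4336, 4469.6, 3035 and 5256 in CON-LFD, 1744, 3238, 3374 and 3185 in DIO-HFD, 3028, 3976, 3489.7 and 3926 in DIO-LFD and 2716, 2117, 2933 and 3017 in DIO-VSG. The DIO-VSG libraries lay below all CON-LFD and all DIO-LFD libraries, whereas DIO-HFD overlapped both. On the log2 scale the difference was -0.59 (SE 0.21, unadjusted p = 0.0152, adjusted p = 0.275) in DIO-HFD against CON-LFD and -0.65 (SE 0.21, unadjusted p = 0.00837, adjusted p = 0.268) in DIO-VSG against CON-LFD. DIO-VSG and DIO-HFD differed by -0.06, with a 95% interval of -0.52 to 0.39, and DIO-LFD lay above DIO-HFD by 0.36 (95% interval -0.10 to 0.82). Without DIO-HFD replicate 1 the difference from CON-LFD was -0.36 and DIO-LFD lay 0.13 above DIO-HFD. The latter was 0.60 when the 4 libraries of low B cell score were left out. DIO-VSG differed from CON-LFD by -0.44 without those libraries, by -0.39 with the adipocyte score as a covariate and by -0.33 with the B and T cell score.

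Vegfa, the main angiogenic ligand, had overlapping levels in all 4 groups. Its normalized counts were 10580.2, 19095, 11027 and 14176 in CON-LFD, 6884, 18951, 9938 and 11203 in DIO-HFD, 53814, 11794, 12079.5 and 11386 in DIO-LFD and 9406, 8916, 12655 and 10157 in DIO-VSG. A single library, DIO-LFD replicate 1, lay far above the rest of its group, whose mean with it was 22268 ± 21032. The log2 fold change was 0.65 (SE 0.44, unadjusted p = 0.16, adjusted p = 0.773) in DIO-LFD against DIO-HFD, 0.10 without that library and 0.97 without the 4 libraries of low B cell score. DIO-HFD differed from CON-LFD by -0.28 (95% interval -1.22 to 0.66) and DIO-VSG by -0.11 from DIO-HFD (95% interval -1.04 to 0.83).

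Kdr, which carries most of the VEGF-A signal, was lower in DIO-VSG than in DIO-LFD and DIO-HFD. In normalized counts, the libraries read 6553, 10828, 10212 and 6988 in DIO-HFD, 13177, 8126, 7345 and 8465 in DIO-LFD, 5393, 6903, 6375 and 5951 in DIO-VSG and 5550.0, 9186, 6308 and 6245 in CON-LFD. All DIO-VSG libraries lay below all DIO-LFD libraries, and they overlapped the lower DIO-HFD libraries. By limma the log2 fold change was -0.56 (SE 0.21, unadjusted p = 0.0191, adjusted p = 0.509) against DIO-LFD and -0.46 (SE 0.21, unadjusted p = 0.0469, adjusted p = 0.377) against DIO-HFD. Without DIO-LFD replicate 1 the former was -0.38, with the adipocyte score as a covariate it was -0.32, and without the 4 libraries of low B cell score the latter was -0.14.

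Flt1, the decoy receptor, followed Vegfa in DIO-LFD replicate 1. Replicates 1 to 4 held normalized counts of 24896, 7125, 5964 and 5756 in DIO-LFD, 6518, 10481, 5609 and 6389.8 in CON-LFD, 4013, 9748, 8484 and 6210.1 in DIO-HFD and 5619.8, 4838, 5924 and 5586 in DIO-VSG. Apart from that 1 library the groups overlapped. On the log2 scale the difference was 0.39 (SE 0.40, unadjusted p = 0.348, adjusted p = 0.897) in DIO-LFD against DIO-HFD and -0.11 without DIO-LFD replicate 1 (0.82 without the 4 libraries of low B cell score), and it was -0.30 (SE 0.40, unadjusted p = 0.47, adjusted p = 0.709) in DIO-VSG against DIO-HFD. The latter turned to 0.13 without the 4 libraries of low B cell score and to 0.08 with the B and T cell score as a covariate.

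Pecam1, an adhesion molecule of endothelium that some leukocytes and platelets also carry, was the only member whose DIO-HFD and CON-LFD libraries did not overlap (background 4.76%). Its normalized counts were 12030.3, 14346, 15028 and 10653 in CON-LFD and 18997, 17866, 20159.5 and 15992 in DIO-HFD. They were 25489, 11863, 13043 and 14732 in DIO-LFD and 16171, 15965, 15139.9 and 14503 in DIO-VSG, groups that overlapped DIO-HFD. In each of these groups the overlap rested on replicate 1, and every other library lay below all DIO-HFD libraries. The log2 fold change was 0.50 (SE 0.19, unadjusted p = 0.0218, adjusted p = 0.306) in DIO-HFD against CON-LFD, with values of -0.24 for DIO-VSG and -0.23 for DIO-LFD against DIO-HFD. Without DIO-LFD replicate 1, which at 25489 was the highest of all libraries, the last of these was -0.47.

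Cdh5, which encodes the junction protein specific to endothelium, had its lowest mean in DIO-VSG. In normalized counts, the libraries read 8999, 9061, 9839.7 and 10079.8 in DIO-VSG, against 10672, 20461, 25086 and 12787 in DIO-HFD, 24329, 10659.7, 11094 and 14782 in DIO-LFD and 13812, 16441, 9499 and 13001 in CON-LFD. Every DIO-VSG library lay below every DIO-HFD and DIO-LFD library, and the DIO-HFD group was spread over a range from 10672 to 25086. By limma the log2 fold change was -0.78 (SE 0.29, unadjusted p = 0.0165, adjusted p = 0.312) against DIO-HFD and -0.60 (SE 0.29, unadjusted p = 0.055, adjusted p = 0.51) against DIO-LFD. As for Tek and Kdr, the high DIO-HFD values belonged to replicates 2 and 3, and without the 4 libraries of low B cell score the difference from DIO-HFD was -0.30. The difference from DIO-LFD was -0.35 without DIO-LFD replicate 1 and -0.18 with the adipocyte score as a covariate.

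**Figure D3:**
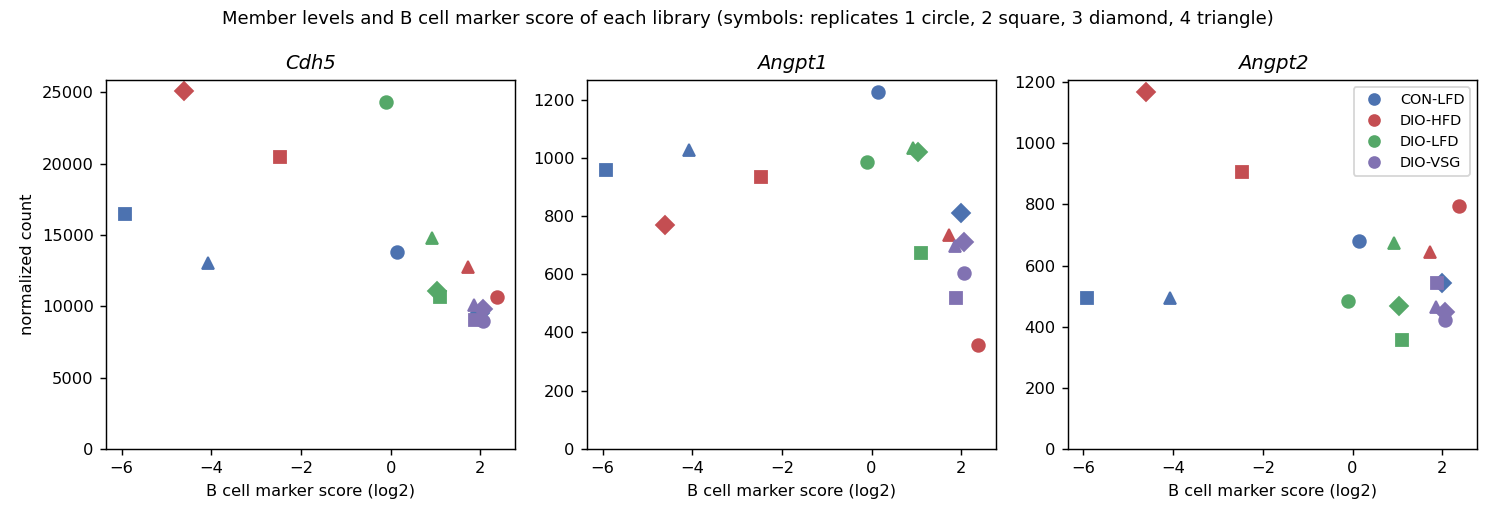
Normalized count of Cdh5, Angpt1 and Angpt2 (vertical axes, from 0) against the B cell marker score of the same library (horizontal axis, log2 scale relative to the mean of 16 libraries), colored by group. The DIO-VSG libraries sit together at scores of 1.87 to 2.07, whereas CON-LFD and DIO-HFD run from -5.92 to 2.00 and from -4.62 to 2.37.

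Counted over members, ranges that did not overlap were found for 1 of 10 in DIO-HFD against CON-LFD, for 2 (Cdh5 and Angpt2) in DIO-VSG against DIO-HFD (background 6.59%) and for 0 in DIO-LFD against DIO-HFD (4.51%). They were found for 3 (Vegfb, Kdr and Cdh5) in DIO-VSG against DIO-LFD, where the background was 18.8%, for 2 (Vegfb and Angpt1) in DIO-VSG against CON-LFD (7.02%) and for 0 in DIO-LFD against CON-LFD (3.53%). In DIO-VSG against DIO-HFD, 9 of 10 members had a negative log2 fold change, with a median of -0.27 beside 0.02 over all genes tested. In DIO-HFD against CON-LFD 6 of 10 were positive, with a median of 0.20 beside 0.02. When the 4 libraries of low B cell score were left out, these became 5 of 10 negative with a median of 0.00, and 5 of 10 positive with a median of -0.05. In DIO-VSG against DIO-LFD, which holds none of those libraries but holds DIO-LFD replicate 1, 9 of 10 were negative with a median of -0.55, beside -0.02 over all genes. Leaving out each library in turn gave -0.95 to -0.21 for Vegfa and -0.90 to -0.19 for Flt1, beside -0.75 and -0.69 with all libraries. For Kdr and Cdh5 it gave -0.66 to -0.38 and -0.74 to -0.35. Marker lists differed in that comparison too. All 10 B cell markers (median 1.22) and all 11 T cell markers (median 1.37) were positive, while all 10 adipocyte markers (median -0.42), all 10 mammary epithelium markers (median -0.37) and 9 of 10 macrophage markers (median -0.55) were negative. Their part in the member values was not tested beyond the score covariates.

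**Figure D4:**
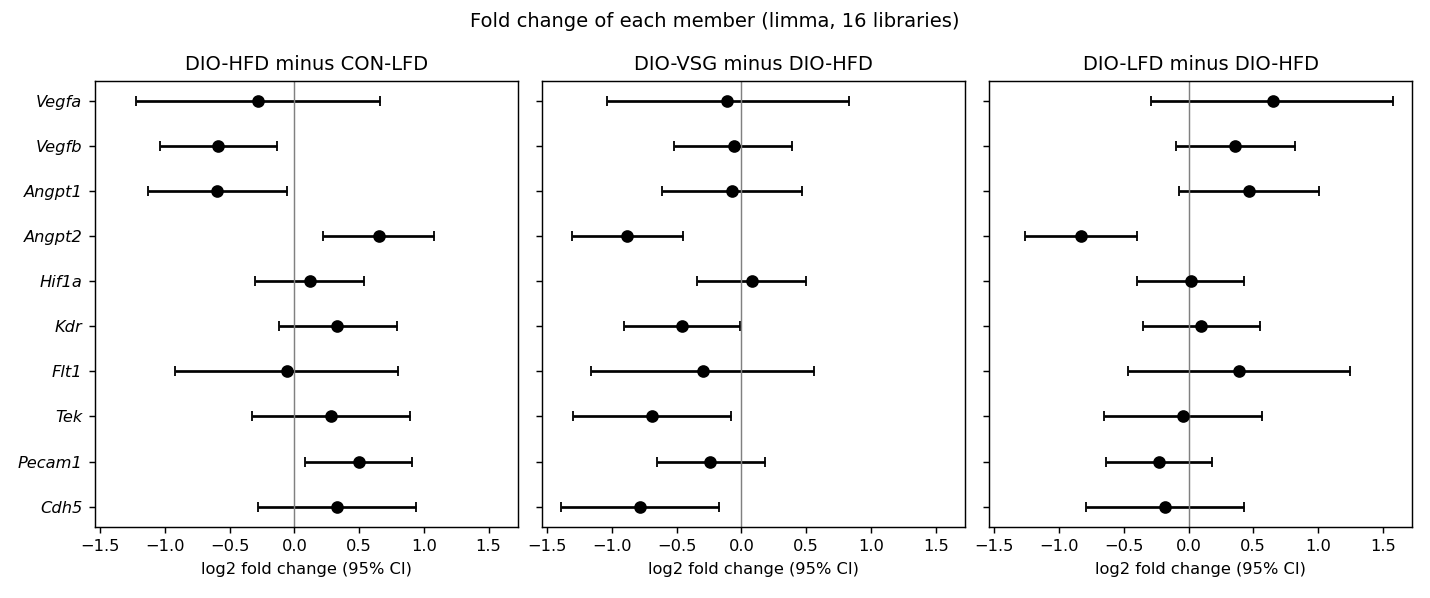
Log2 fold change (horizontal axis, points) with its 95% confidence interval (bars) for the 10 members in 3 comparisons, from limma over 16 libraries. The interval of Angpt2 does not reach 0 in any of the 3 panels (0.22 to 1.08, -1.31 to -0.45 and -1.26 to -0.40, not corrected for the number of genes), and those of Vegfa span 0 in all of them.

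Hif1a, whose product is controlled largely by protein stability, differed little between group means. Replicates 1 to 4 held normalized counts of 5924, 5808, 8509 and 6453 in CON-LFD, 7315, 6693, 9212 and 5788 in DIO-HFD, 6099, 9078, 6159.8 and 7982 in DIO-LFD and 6803, 6756, 6598 and 10731 in DIO-VSG. The groups overlapped throughout, and the log2 fold change was 0.12 (95% interval -0.30 to 0.54) in DIO-HFD against CON-LFD, 0.08 (-0.34 to 0.50) in DIO-VSG and 0.02 (-0.40 to 0.43) in DIO-LFD against DIO-HFD. Of 9 other subunits and regulators of these factors, 0 passed the adjusted threshold and 0 an unadjusted p below 0.05 in the 3 comparisons (beside 12.9%, 13.2% and 8.53% of all genes). The strongest by t were Egln2, an oxygen-sensing prolyl hydroxylase, at -0.24 in DIO-HFD against CON-LFD and 0.21 in DIO-LFD against DIO-HFD, and Epas1, the HIF-2 alpha subunit abundant in endothelium, at -0.40 in DIO-VSG against DIO-HFD (-0.07 without the 4 libraries of low B cell score). Of 23 known target genes none reached the adjusted threshold, while an unadjusted p below 0.05 was found for 1 higher and 2 lower, 2 higher and 4 lower, and 4 higher and 0 lower in the order of the intervals above (beside 12.9%, 13.2% and 8.53% of all genes). With the 4 libraries of low B cell score left out, 0 passed that p in the first (beside 7.54% of all genes), 5 were higher and 0 lower in the second (beside 6.95%) and 7 were higher and 0 lower in the third (beside 23.1%). Their medians were then -0.16, 0.34 and 0.55, against 0.01, 0.08 and 0.27 with all libraries. The named targets differed in sign. Hk2, a glycolytic enzyme, had -0.89 (SE 0.29, unadjusted p = 0.00809, adjusted p = 0.25) in DIO-HFD against CON-LFD and 0.91 in DIO-LFD against DIO-HFD. Pdk1, whose product restrains the use of pyruvate in mitochondria, had 0.78 in DIO-VSG against DIO-HFD (0.40 without those 4 libraries). Adm, a vasodilator peptide, had 1.35 in DIO-HFD against CON-LFD and -1.33 in DIO-VSG against DIO-HFD (0.48 and -0.63 without them), and was chosen after its values were seen.

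The other genes of vessel growth were read from lists of known function, chosen with earlier results of these data known. Of 23 further ligands and receptors, 18 were positive in DIO-HFD against CON-LFD (median 0.30) and 21 were negative in DIO-VSG against DIO-HFD (median -0.59), with 4 higher and 14 lower at an unadjusted p below 0.05 (12.9% and 13.2% of all genes) and 0 past the adjusted threshold in either. In DIO-LFD against DIO-HFD 17 were negative (median -0.11) and 1 was lower at that p (8.53% of all genes). With the 4 libraries of low B cell score left out, 13 were positive in the first comparison (median 0.12, 0 higher and 1 lower at that p, beside 7.54%), 20 negative in the second (median -0.25, 5 lower, beside 6.95%) and 7 negative in the third (median 0.12, 2 higher, beside 23.1%). The list includes Vegfd, which the table holds under its older symbol Figf. Apln, which encodes apelin, a peptide made by sprouting tip cells, had the largest t in DIO-HFD against CON-LFD and in DIO-LFD against DIO-HFD. Its normalized counts were 736, 1075, 1659 and 438 in DIO-HFD, 434, 225, 130.1 and 385 in CON-LFD, 169, 195, 138 and 612 in DIO-LFD and 201, 246, 163 and 229 in DIO-VSG. All DIO-HFD libraries lay above all DIO-VSG and all CON-LFD libraries, and DIO-LFD replicate 4 reached into the DIO-HFD range. The log2 fold change of Apln was 1.72 (SE 0.50, unadjusted p = 0.00386, adjusted p = 0.227) in DIO-HFD against CON-LFD, -2.06 (SE 0.50, unadjusted p = 0.000959, adjusted p = 0.243) in DIO-VSG and -1.91 (SE 0.50, unadjusted p = 0.00173, adjusted p = 0.35) in DIO-LFD against DIO-HFD. These became 1.25, -1.45 and -1.30 without the 4 libraries of low B cell score and 0.45, -1.22 and -0.99 with array weights.

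Vegfc, the ligand of lymphatic vessel growth, was the strongest by t in DIO-VSG against DIO-HFD at -1.07 (SE 0.26, unadjusted p = 0.000887, adjusted p = 0.243). It stood at 313, 581, 717 and 338 normalized counts in DIO-HFD and 209.5, 228, 239 and 195 in DIO-VSG, and the difference was -0.58 without the 4 libraries of low B cell score. Dll4 and Pdgfb, chosen after their values were seen, are products of sprouting endothelium that restrain neighboring tip cells and recruit pericytes. In DIO-VSG against DIO-HFD, Dll4 had -1.10 (SE 0.32, unadjusted p = 0.00381, adjusted p = 0.259) and Pdgfb -0.85 (SE 0.21, unadjusted p = 0.00101, adjusted p = 0.243), or -0.60 and -0.51 without the 4 libraries of low B cell score. For Pdgfb the DIO-VSG libraries held 1373, 1394, 1321 and 1402 normalized counts, below every library of DIO-HFD (1821, 3206, 3074 and 2102) and DIO-LFD (2207, 1786, 1803 and 2119).

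Genes that restrain vessel growth formed another list. Of 12 inhibitors, 11 were positive in DIO-HFD against CON-LFD (median 0.43, 3 at an unadjusted p below 0.05) and 12 were negative in DIO-VSG against DIO-HFD (median -0.90, 8 at that p, beside 12.9% and 13.2% of all genes), with 0 past the adjusted threshold. In DIO-LFD against DIO-HFD 10 were negative (median -0.40, 1 at that p, beside 8.53%). With the 4 libraries of low B cell score left out, 9 were positive in DIO-HFD against CON-LFD (median 0.29, 0 at that p), 12 negative in DIO-VSG (median -0.70, 5 at that p, where 6.95% of all genes passed it) and 7 negative in DIO-LFD (median -0.10, 0 at that p) against DIO-HFD. Thbs1, which encodes thrombospondin-1, an inhibitor of endothelial growth, stood at 34443, 72586, 39863 and 11589 normalized counts in DIO-HFD, 9756, 6956, 13472 and 11573 in CON-LFD, 36040.2, 8614, 37419 and 6210.1 in DIO-LFD and 7226, 3653, 4404 and 10412 in DIO-VSG. Both DIO-HFD and DIO-LFD spanned a wide range. The log2 fold change of Thbs1 was 1.69 (SE 0.63, unadjusted p = 0.0173, adjusted p = 0.283) in DIO-HFD against CON-LFD, and 0.80 without the 4 libraries of low B cell score. Vash1, which encodes vasohibin-1, a feedback inhibitor made by endothelium, had -1.59 (SE 0.33, unadjusted p = 0.000304, adjusted p = 0.243) in DIO-VSG against DIO-HFD. Thbs2 had the largest t in DIO-LFD against DIO-HFD, at -1.06 (SE 0.45, unadjusted p = 0.0319, adjusted p = 0.539), and -0.50 without those libraries.

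Among 30 other endothelial identity genes, 26 were positive in DIO-HFD against CON-LFD (median 0.32, 2 at an unadjusted p below 0.05), 28 were negative in DIO-VSG against DIO-HFD (median -0.54, 15 at that p) and 24 were negative in DIO-LFD against DIO-HFD (median -0.16, 3 lower and 1 higher at that p). Of all genes 12.9%, 13.2% and 8.53% passed that p, their medians were 0.02, 0.02 and 0.01, and 0 genes of the list passed the adjusted threshold, although array weights, which rested on 1 DIO-HFD library, called 11 in DIO-VSG against DIO-HFD, beside 17.6% of all genes. With the same libraries left out, 25 were positive (median 0.19), 27 negative (median -0.27, 1 at that p, again beside 6.95% of all genes) and 11 negative (median 0.15). The strongest by t were Icam2, an adhesion molecule, at 0.72 (SE 0.22, unadjusted p = 0.00606, adjusted p = 0.244) in DIO-HFD against CON-LFD, and Sox18, an endothelial transcription factor, at -1.12 (SE 0.26, unadjusted p = 0.000759, adjusted p = 0.243) in DIO-VSG against DIO-HFD. Unlike most of the list, Icam2 was 0.01 in DIO-VSG against DIO-HFD. Its highest libraries in CON-LFD (replicate 3, 1040 normalized counts) and DIO-HFD (replicate 1, 1418) had the highest B cell scores of those groups. Nos3, the endothelial nitric oxide synthase, was 0.65 higher in DIO-LFD than in DIO-HFD (0.40 without DIO-HFD replicate 1 and 1.03 without the 4 libraries of low B cell score). The mean score of the list was -0.34 to -0.22 in the 4 DIO-VSG libraries, -0.15 to 0.57 in DIO-HFD, -0.27 to 0.67 in DIO-LFD and -0.26 to 0.30 in CON-LFD, so every DIO-VSG library lay below every DIO-HFD library. In DIO-HFD the scores of replicates 1 and 4, which were rich in lymphocyte RNA, were -0.15 and 0.09, and those of replicates 2 and 3 were 0.48 and 0.57. The part of lymphocyte RNA in these differences was not tested beyond the libraries left out and the B and T cell score as a covariate.

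Markers of other cell types differed between the same groups. Of 10 macrophage markers, 9 were positive in DIO-HFD against CON-LFD (median 0.31), 9 were negative in DIO-VSG against DIO-HFD (median -0.67, and -0.69 without the 4 libraries of low B cell score) and 8 were negative in DIO-LFD against DIO-HFD (median -0.14), with 0 at an unadjusted p below 0.05, which 12.9%, 13.2% and 8.53% of all genes passed. Their summed level was 18158 to 146402 normalized counts in CON-LFD, 49268 to 77131 in DIO-HFD, 47394 to 74210 in DIO-LFD and 33062 to 76306 in DIO-VSG. All 10 mammary epithelium markers were negative in DIO-HFD against CON-LFD (median -0.75, 4 at that p), and 7 were positive in DIO-VSG (median 0.27, 2 at that p) and in DIO-LFD (median 0.67, 6 at that p) against DIO-HFD. All 10 skeletal muscle markers were negative in the first of these (median -2.42), 9 were positive in the second (median 1.94) and 10 in the third (median 2.25), with 1 at that p in each. Of the adipocyte markers 9 of 10 were negative in the first (median -0.50), 7 were positive in the second (median 0.02) and 9 in the third (median 0.44, 2 at that p). The adipocyte medians without the 4 libraries of low B cell score were -0.65, 0.45 and 0.85, with 7 at that p in the third (beside 23.1%). The summed level of the epithelial markers was 61526 to 130003 in CON-LFD, 39709 to 85502 in DIO-HFD, 70744 to 187000 in DIO-LFD and 71713 to 104062 in DIO-VSG. That of the muscle markers was 2538 to 36667, 903 to 3198, 1465 to 160473 and 531 to 27599 in the same order. The muscle levels of both weight-loss groups therefore spanned the DIO-HFD range. No marker was at 0 in any library, and the part of these cell types in the differences of the vessel genes was not tested beyond the adipocyte score as a covariate.

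Of 14 genes of mural cells, the pericytes and smooth muscle cells that wrap vessels, 11 were positive in DIO-HFD against CON-LFD (median 0.20), 11 were negative in DIO-LFD against DIO-HFD (median -0.23) and 12 were negative in DIO-VSG against DIO-HFD (median -0.69, 10 lower and 1 higher at an unadjusted p below 0.05, beside 13.2% of all genes), and without the 4 libraries of low B cell score 13 were negative in the last (median -0.58, 6 lower and 1 higher, beside 6.95% of all genes). Ndufa4l2, a mitochondrial protein gene used as a pericyte marker, had -1.27 (SE 0.32, unadjusted p = 0.00131, adjusted p = 0.243) in DIO-VSG against DIO-HFD (-0.72 without them), and Cspg4, the NG2 proteoglycan of pericytes, which other cells also make, had -1.61 (SE 0.42, unadjusted p = 0.00183, adjusted p = 0.2) in DIO-HFD against CON-LFD and 1.24 in DIO-LFD against DIO-HFD, opposite in sign to most of the mural list. Alternatives put Cspg4 between 0.64 and 1.46 in DIO-LFD against DIO-HFD.

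**Figure D5:**
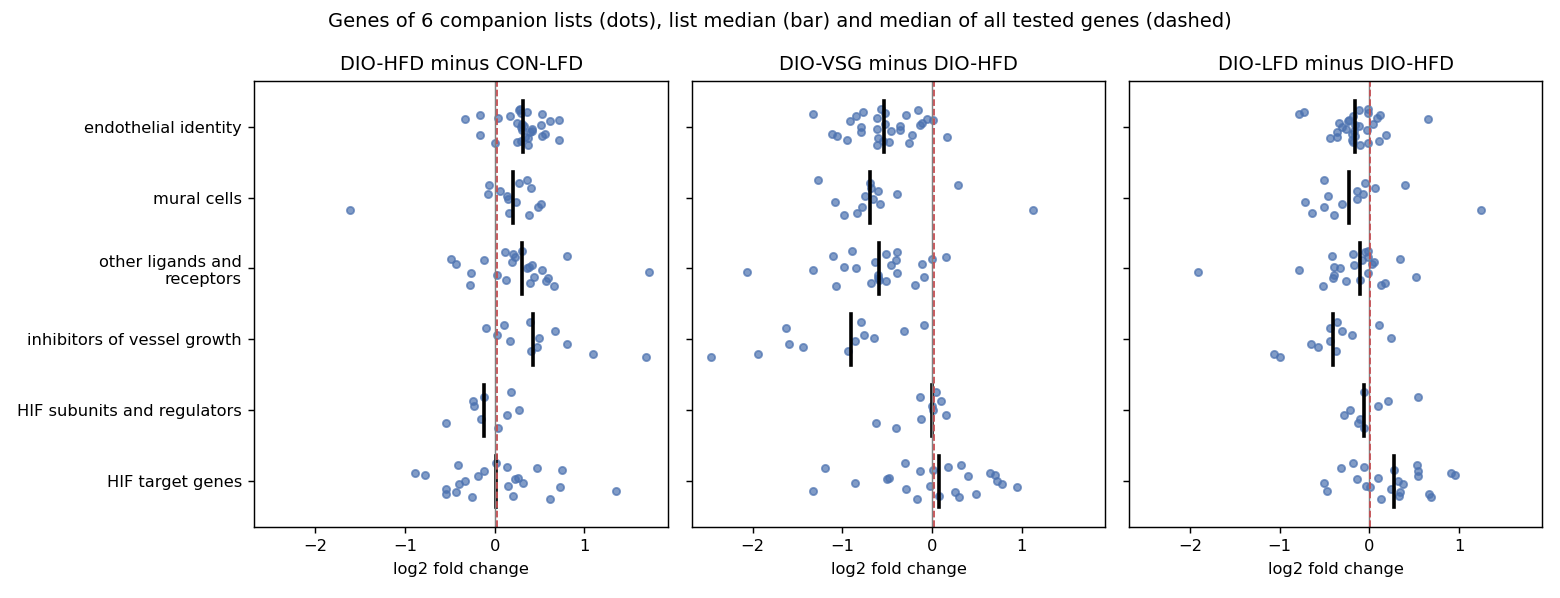
Log2 fold change (horizontal axis) of every gene of 6 lists (dots, rows) in 3 comparisons, with the list median (black bar) and the median of all genes tested (dashed line). In DIO-VSG against DIO-HFD the medians of endothelial identity (-0.54), mural cells (-0.69), other ligands and receptors (-0.59) and inhibitors (-0.90) lie below 0, while the HIF lists stay near it.

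Compared between genes per kilobase of exon in CON-LFD, the members with the highest level were Vegfa (3202 ± 916 normalized counts per kilobase), Cdh5 (3138 ± 682), Vegfb (2663 ± 574) and Pecam1 (2090 ± 326; SD, n = 4), and neighbors in this order differed by no more than the larger of their SDs. Hif1a (1132 ± 213), Kdr (756 ± 179), Tek (597 ± 137) and Flt1 (537 ± 162) followed. The angiopoietins were lowest, at 193 ± 33.0 for Angpt1 and 150 ± 23.9 for Angpt2.

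The 5 genes most like the standardized mean of Kdr, Flt1, Pecam1, Cdh5 and Tek over the 16 libraries were Shank3 (Pearson r 0.98), Esam (0.968), Fgd5 (0.965), Mmrn2 (0.964) and 5430416O09Rik (0.96), and Esam and Mmrn2 also stand in the list of endothelial identity. Those most like Vegfa were Insr, the insulin receptor gene (0.966), Sctr (0.946), Gm9992 (0.938), Cyyr1 (0.924) and Pim3 (0.923). The libraries behind these values share groups and lymphocyte content, and DIO-LFD replicate 1 was the highest library for Shank3 (14541 normalized counts, against at most 9495 elsewhere) and Insr (24623, against at most 14328). Without that library, chosen for leaving out after the data were seen, Fgd5 and Shank3 stayed among the 5 closest to the endothelial members (0.97 and 0.969), and Gm9992 was the only gene to stay among the 5 closest to Vegfa (0.945).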

How the data were processed

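Total RNA of 16 mammary adipose libraries was sequenced from stranded libraries. The authors describe STAR alignment to GRCm38, salmon with a Gencode annotation (release not given in the sources used here), removal of genes under 10 counts and DESeq2. The submitters' processing notes instead name TopHat2 2.0.7, HTSeq 0.5.3p9 and mm10. The deposited values (5.36 to 21.85) were on a log2 scale after variance stabilization by the authors, not the normalized counts the design had assumed. They were inverted to normalized counts, and 100.0% came out as whole reads (within 0.05) once each library was rescaled, with size factors of 0.9036 to 1.2204. The labels name no batch and do not say whether mice of a group shared a litter or cage, so p-values measure only the spread between these samples.

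A gene was tested where 4 libraries or more reached 10 normalized counts (21218 genes). The test was limma-trend (version 3.58.1, under R 4.3.3) on the log2 of the normalized count plus 1, which understates the change of low genes. It was 1 fit of 16 libraries with group as the term, two-sided, with Benjamini-Hochberg adjustment over all genes at 0.05, and was tested on simulated data. The ratio of Angpt2 to Angpt1 was tested by exact permutation over libraries. A list score averages, over the genes of a list, each log2 value after subtraction of the gene's mean in 16 libraries. All members are named, with each companion gene past the threshold or, where a list had none, the one with the largest t in each DIO-HFD comparison. The members and lists were chosen with earlier results of these data known. Alternatives covered pseudocounts of 0.5 and 5, the low-value filter, the values as deposited, scaling, voom, array weights, score covariates, a replicate block, the 8 libraries compared alone, predicted genes and each library left out in turn. Samples sharing a replicate number had deviations from group means that correlated between -0.609 and 0.534, so the numbers were not taken to pair samples. Positions and exon lengths came from GENCODE M21, which held 22221 of 23179 symbols (95.9%).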

Additional observations from a re-analysis of the deposited data

Results flagged for a closer look

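Among 44 sets of 4 libraries checked (10 members and the Angpt2 to Angpt1 ratio in 4 groups), 5 had 1 library far from the other 3 by the 95% critical value of Dixon for 4 samples, which chance exceeds in about 1 set in 20. DIO-LFD replicate 1 stood above its group for Vegfa (53814 normalized counts, against 11386 to 12080 in the other 3 libraries) and for Flt1 (24896, against 5756 to 7125). The same library had the highest endothelial identity score (0.67) and the highest adipocyte score (0.73) of the 16, and a B cell score of -0.10; the part of these in its Vegfa and Flt1 levels was not tested. DIO-HFD replicate 1 stood below its group for Vegfb (1744, against 3185 to 3374). DIO-LFD replicate 2 stood below its group for Angpt1 (672.5, against 985 to 1033). DIO-VSG replicate 4 stood above its group for Hif1a (10731, against 6599 to 6803).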

How the results depend on the processing

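The count of members past the adjusted threshold was 0 in all comparisons under every alternative except 2. Array weights, which gave DIO-HFD replicate 4 a weight of 10.9 and so let 1 library speak for its group, called 3 members in DIO-HFD against CON-LFD (Vegfb, Pecam1 and Angpt1, beside 19.8% of all genes), 3 in DIO-VSG against DIO-HFD (Cdh5, Tek and Angpt2, beside 17.6%), 2 in DIO-VSG against CON-LFD (Vegfb and Angpt1, beside 19.9%) and 4 across the 4 groups (beside 34.8%). In DIO-VSG against DIO-HFD they also called 11 of 30 endothelial identity genes, 11 of 23 other ligands and receptors, 6 of 12 inhibitors, 9 of 14 mural genes, 6 of 23 HIF targets and 3 of 9 lymphatic genes. Up to 2 HIF subunits and regulators were called there by an alternative. In DIO-VSG against CON-LFD the most that an alternative called was 7 ligands and receptors, 6 mural genes, 3 endothelial genes and 3 inhibitors. Without CON-LFD replicate 3, 1 member (Vegfb, -0.81) was called in DIO-VSG against CON-LFD (beside 4.11% of all genes), with 2 endothelial identity genes and 1 HIF target there and 1 endothelial and 1 mural gene in DIO-HFD against CON-LFD (beside 0.603%), so that leaving out 1 library gave 0 to 1 members there and 0 elsewhere. The adipocyte score called 1 endothelial gene, 2 other ligands and receptors and 1 mural gene in DIO-VSG against DIO-HFD (beside 0.353% of all genes), and the 8 libraries alone called 2 endothelial genes in DIO-VSG against DIO-LFD (beside 7.22%). At most, an alternative called 5 endothelial, 6 HIF target and 3 mural genes in DIO-HFD against CON-LFD. In DIO-LFD against DIO-HFD the most was 3, 5 and 2 of these. In DIO-VSG against DIO-LFD it was 1 ligand or receptor, 1 mural, 1 lymphatic and 2 lymph node genes. Array weights called 19.8%, 8.54% and 0.867% of all genes in these 3 comparisons. With the replicate block the count of members was 0 in all comparisons, and at an unadjusted p below 0.05 it was 4, 3, 1, 1, 2 and 0; the numbers are not known to pair the samples. The block left Angpt2 at -0.88 (adjusted p = 0.336) in DIO-VSG against DIO-HFD and the ratio at 1.24 and -1.30. Angpt2 kept its direction in the 3 DIO-HFD comparisons under every alternative, from 0.13 to 0.78, from -1.01 to -0.53 and from -0.99 to -0.42.

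Some signs turned, most of them of small differences, though Cxcl13 in DIO-LFD against DIO-HFD had stood at 2.09. With the B and T cell score as a covariate, Flt1 in DIO-HFD against CON-LFD was 0.08, Tek in DIO-LFD against DIO-HFD 0.14, and in DIO-VSG against DIO-HFD Vegfa was 0.22, Vegfb 0.17, Flt1 0.08 and Angpt1 0.13. With the adipocyte score, Vegfa was 0.11 and Flt1 0.34 in DIO-HFD against CON-LFD, Vegfa 0.02, Vegfb 0 and Angpt1 0.01 in DIO-VSG against DIO-HFD, Kdr -0.08 and Flt1 -0.01 in DIO-LFD against DIO-HFD, and Angpt2 0.01 in DIO-VSG against DIO-LFD. With the endothelial score, added after seeing the data, the last was 0.08. Without the 4 libraries of low B cell score, also added after seeing the data, Hif1a in DIO-HFD against CON-LFD was -0.13, in DIO-VSG against DIO-HFD Vegfa was 0.21, Vegfb 0.18, Flt1 0.13 and Angpt1 0.30, and in DIO-LFD against DIO-HFD Cdh5 was 0.30, Tek 0.45 and Cxcl13 -0.57. Array weights turned Cdh5 (-0.04) and Hif1a (-0.07) in DIO-HFD against CON-LFD and Tek (0.08) and Cxcl13 (-0.14) in DIO-LFD against DIO-HFD, and upper-quartile scaling put Hif1a at 0 in the latter. Leaving out 1 library gave signs of both kinds for Flt1 (-0.24 to 0.19) and Hif1a (-0.01 to 0.24) in DIO-HFD against CON-LFD, for Vegfa (-0.33 to 0.15), Vegfb (-0.29 to 0.05), Angpt1 (-0.36 to 0.10) and Hif1a (-0.09 to 0.20) in DIO-VSG against DIO-HFD, for Kdr (-0.08 to 0.22), Flt1 (-0.11 to 0.60), Cdh5 (-0.43 to 0.03), Tek (-0.32 to 0.16) and Hif1a (-0.09 to 0.14) in DIO-LFD against DIO-HFD, for Angpt2 in DIO-VSG against DIO-LFD (-0.20 to 0.11) and for the ratio in DIO-LFD against CON-LFD (-0.16 to 0.04). The causes were not tested. Quantile and upper-quartile scaling moved the median of all genes by at most 0.04.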

Other observations

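Lymphatic and lymph node vessels were described by 2 further lists. Of 9 genes of lymphatic endothelium, 0 passed an unadjusted p below 0.05 in any of the 3 comparisons with DIO-HFD (beside 12.9%, 13.2% and 8.53% of all genes). Flt4, the receptor of VEGF-C, was the strongest by t in each of the 3, at 0.57 in DIO-HFD against CON-LFD, -0.51 in DIO-VSG and -0.26 in DIO-LFD against DIO-HFD, the last between -0.56 (without DIO-LFD replicate 1) and -0.13 (without DIO-LFD replicate 3). Of 8 genes of lymph node vessels and their surroundings, 6 were positive in DIO-VSG against DIO-HFD with a median of 2.00 and 0 at an unadjusted p below 0.05 (beside 13.2% of all genes). Without the 4 libraries of low B cell score, left out after the data were seen, the lymphatic list was negative for 9 of 9 genes in DIO-VSG and in DIO-LFD against DIO-HFD (medians -0.79 and -0.49), with 1, 1 and 3 at an unadjusted p below 0.05 in the 3 comparisons (beside 7.54%, 6.95% and 23.1% of all genes), and the median of the lymph node list in DIO-VSG against DIO-HFD was 0.02. Selp, an adhesion molecule of activated endothelium, was the strongest in DIO-HFD against CON-LFD (0.74). Cxcl13, the chemokine of B cell follicles, was the strongest in DIO-VSG (2.83) and DIO-LFD (2.09) against DIO-HFD. These were 1.40 and 0.66 without DIO-HFD replicate 3, and 0.17 and -0.57 without the 4 libraries of low B cell score. Cxcl13 stood at 3780.0, 222, 21.8 and 2185 normalized counts in DIO-HFD replicates 1 to 4, with the 2 low values in the libraries poor in lymphocyte RNA.

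The spread within DIO-VSG was small for most members. The coefficient of variation over 4 libraries was 5.8% for Cdh5, 5.0% for Pecam1, 8.4% for Flt1 and 10.4% for Kdr in DIO-VSG, against 38.9%, 9.7%, 35.6% and 25.3% in DIO-HFD and 41.7%, 38.4%, 85.3% and 28.5% in DIO-LFD. Hif1a was an exception, at 26.0% in DIO-VSG and 19.9% in DIO-LFD, and so was Vegfb, at 15.1% and 12.3%. The B cell score was also least spread in DIO-VSG (SD 0.11, against 3.35 in DIO-HFD); its part in the spread of the members was not tested.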
